A study of Homo sapiens with 4 samples.

Results

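The interferon effector genes ISG15, IFIT1, IFIT2, IFIT3, OAS1, OAS2, OAS3, OASL and MX1 were examined in HAP1 cells with and without the MATR3 gene. The members were all gene probes whose symbol was ISG15 or began with IFIT, OAS or MX followed by a digit, or with OASL, which gave 9 of the 785 gene probes of a NanoString panel. NanoString counting tallies the colour codes of probes hybridised to individual RNA molecules and needs no amplification. The 4 samples were total RNA of HAP1, an established near-haploid human line derived from a leukaemia. Wild-type lines 1 and 7 (2 lines) were supplier batches of the parental cells that the labels also number as clones. MATR3 knockout lines 1 and 5 (2 lines) were bought clones lacking MATR3, which encodes the RNA- and DNA-binding nuclear protein matrin 3. All 4 lines were listed under the same culture protocol, in IMDM medium with heat-inactivated fetal calf serum, penicillin and streptomycin, and the labels name no interferon or other stimulus. Each line was measured once, so that no p-value below covers repeats of a line. The limma and edgeR p-values rest on the spread between these lines and on variance borrowed from other genes. In limma with the trend these were genes of like level. MATR3 itself is not analysed here.

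Type I interferons bind the receptor IFNAR1/IFNAR2 on the cell surface, and the kinases JAK1 and TYK2 then activate a transcription factor complex containing STAT2 and IRF9 that binds interferon-stimulated response elements in promoters. ISG15 is a ubiquitin-like protein that is coupled to other proteins. IFIT proteins bind viral RNA and restrain its translation. OAS1, OAS2 and OAS3 are sensors of double-stranded RNA that make 2'-5' oligoadenylates, while OASL is a related protein without that synthetic activity. MX1 is a dynamin-like GTPase that blocks viruses. All of these genes are textbook interferon targets, and several also respond to IRF3 directly.

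The stretches below lie from base 165 to base 31 before the start site and show how the response-element letters are placed in ISG15, which rose in the knockout, and in IFIT1, IFIT3 and OAS3, which did not pass the test. Sequences are from the RefSeq promoter table of GRCh38.p14, read 5′ to 3′. Capitals mark matches to GAAANNGAAA, a core of the response element, or to its reverse complement TTTCNNTTTC.
ISG15 (chr1:1013332-1013466, plus strand): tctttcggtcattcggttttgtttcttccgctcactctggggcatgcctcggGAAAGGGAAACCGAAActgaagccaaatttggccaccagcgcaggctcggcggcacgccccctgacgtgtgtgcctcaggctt
IFIT1 (chr10:89392458-89392592, plus strand): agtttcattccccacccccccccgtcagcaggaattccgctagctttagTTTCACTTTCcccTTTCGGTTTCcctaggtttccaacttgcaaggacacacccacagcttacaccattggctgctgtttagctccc
IFIT3 (chr10:89327832-89327966, plus strand): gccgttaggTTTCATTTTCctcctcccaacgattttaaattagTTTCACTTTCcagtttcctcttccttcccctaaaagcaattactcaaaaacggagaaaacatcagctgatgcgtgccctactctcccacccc
OAS3 (chr12:112938309-112938443, plus strand): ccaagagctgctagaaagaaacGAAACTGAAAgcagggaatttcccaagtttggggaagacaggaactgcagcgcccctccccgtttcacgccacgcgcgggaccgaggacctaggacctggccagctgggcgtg
In ISG15, 2 overlapping matches began 113 and 107 bases before the start site. IFIT1 held 2 matches in the opposite orientation, beginning 116 and 103 bases before its start. In the IFIT3 stretch, the first of 2 matches began 156 and the second 122 bases before the start, and a second IFIT3 window not printed also held 2. OAS3 held 1 match at base 143 and 1 at base 12, the latter outside the printed stretch. Windows of 300 bases, 250 before and 50 after a start site, were found for 6 of the 9 genes. There were 9 windows in all, of which 7 held a match. The OAS1 window and an MX1 window held none. The motif occurred in 3.57% of all 35116 windows and in 9.34% of the 867 windows of genes on the panel. A match is a run of letters and was not tested as a binding site.

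Levels are normalised counts, meaning whole probe counts multiplied by 1 factor per sample. Total gene counts ranged from 448610 to 571767. The background limit of a line, 2 SD above the mean of the 8 negative control probes there, lay between 19.5 and 25.7 normalised counts. Of 36 member values, 23 lay above the limit of their line. ISG15, IFIT1 and OAS2 (3 of 9) did so in all 4 lines, while OASL and MX1 (2 of 9) did so in none. Of 10 leukocyte marker probes measured, wild-type lines 1 and 7 had 2 and 3 above the limit, while knockout lines 1 and 5 had 3 and 1. Their summed level ranged from 163 to 199 in the wild type and from 116 to 161 in the knockout. PTPRC, the pan-leukocyte antigen CD45, lay below the limit in every line, at 6.68 to 9.39. CD14 lay above it in every line, at 25.6 to 37.7, and FCGR3A/B in every line but knockout line 5. CD4 lay above it in wild-type line 7 and knockout line 1. The part of other cells in the results was not tested, and no defining HAP1 marker was fixed for this panel.

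**Figure D1:**
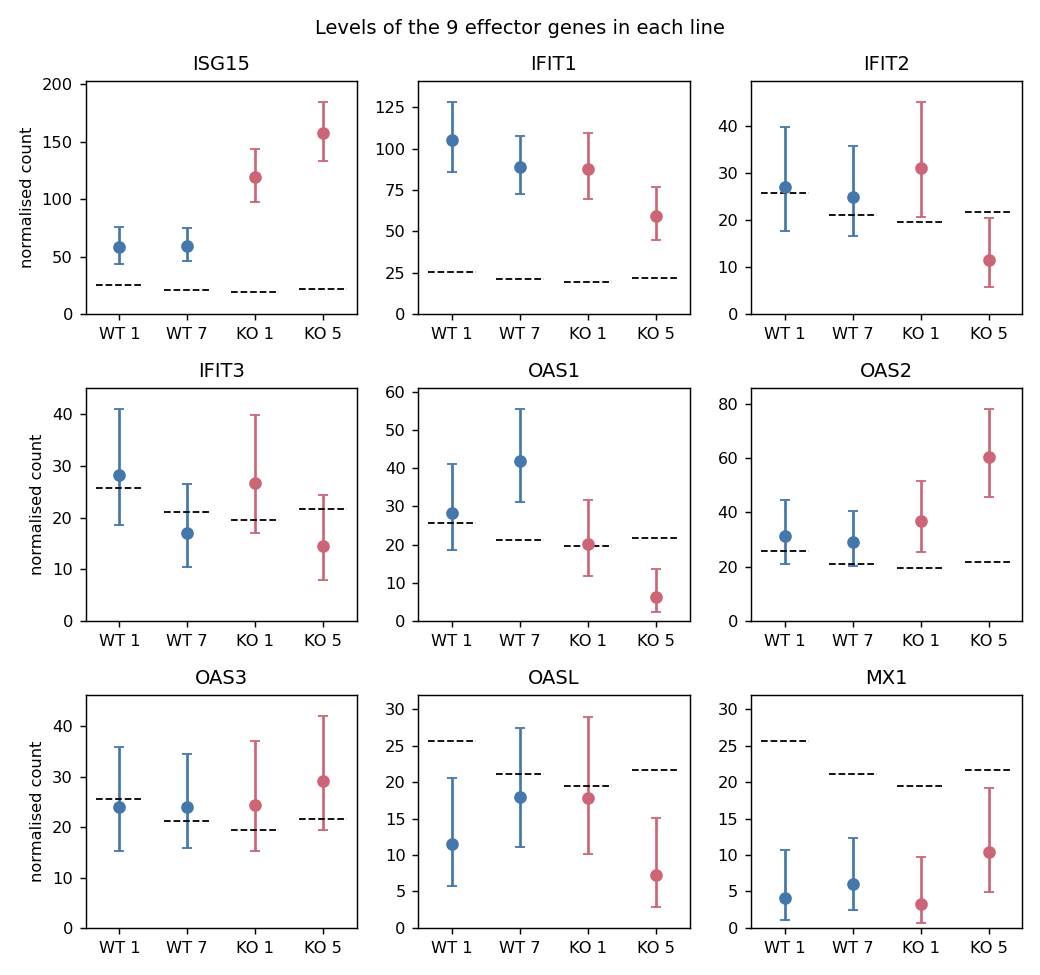
Normalised count (vertical axis) of each of the 9 effector genes in wild-type lines 1 and 7 (WT, blue) and MATR3 knockout lines 1 and 5 (KO, red). Bars are exact 95% Poisson intervals for counting error and dashed lines are the background limit of each line. Only ISG15, IFIT1 and OAS2 lie above the limit in all 4 lines, and ISG15 stands at 119 and 157 in the knockout against 58.4 and 59.0 in the wild type.

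Among the 7 effector genes tested, ISG15 alone passed the test, and it rose in the knockout. Its level was 58.4 normalised counts in wild-type line 1, 59.0 in wild-type line 7, 119 in knockout line 1 and 157 in knockout line 5. Wild-type levels were nearly equal, both knockout lines were higher, and the groups did not overlap. In bulk RNA such as this, more expressing cells and more RNA per cell cannot be told apart. These levels correspond to 56, 69, 107 and 151 counts in that order, recovered from the deposited values. For wild-type line 7 the recovery, here and below, rests on reading the step between values above a floor of 1.00, and is less certain than in the other lines. The exact 95% Poisson intervals, which cover counting error only, reached up to 75.9 and 74.7 in the wild-type lines and began at 97.6 and 133 in the knockout lines. The knockout mean was 138 ± 26.9 and the wild-type mean 58.7 ± 0.438 (SD, n = 2 each). The log2 fold change was 1.21 ± 0.21 (SE), with a 95% interval of 0.75 to 1.66, or 2.31-fold with an interval of 1.68 to 3.17 (limma adjusted p = 0.00387). It was the 7th largest increase among the 514 genes tested. ISG15 kept its call without any 1 line, with its lowest fold change, 1.01 (limma adjusted p = 0.039), without knockout line 5. It lost it under limma without a trend of variance on level (adjusted p = 0.095).

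Across the family, 7 of the 9 genes passed the filter of a mean of 20 or more normalised counts. With limma, 1 of the 7 passed an adjusted p of 0.05 as higher and 0 as lower (2 of the 7 had an unadjusted p under 0.05, and edgeR on the recovered counts also called 1). Without knockout line 1 the count was 3, with IFIT2 and OAS1 added as lower. Over all genes tested, 42 (8.17%) passed, 6.23% as higher and 1.95% as lower, or 77 without knockout line 1 (30 higher and 47 lower), and 19.8% had an unadjusted p under 0.05. The median log2 fold change of the 7 genes was -0.15, beside -0.04 over all tested genes, with 3 genes above 0 and 4 below. The groups did not overlap in 5 of the 7, with ISG15, OAS2 and OAS3 higher and IFIT1 and OAS1 lower in both knockout lines. Over all tested genes this was so in 53.1%, with 22.4% higher and 30.7% lower, so these counts do not set the family apart from the panel. The signs of all 7 fold changes were the same under scaling on positive controls, on sample medians and on reference genes without TBP.

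**Figure D2:**
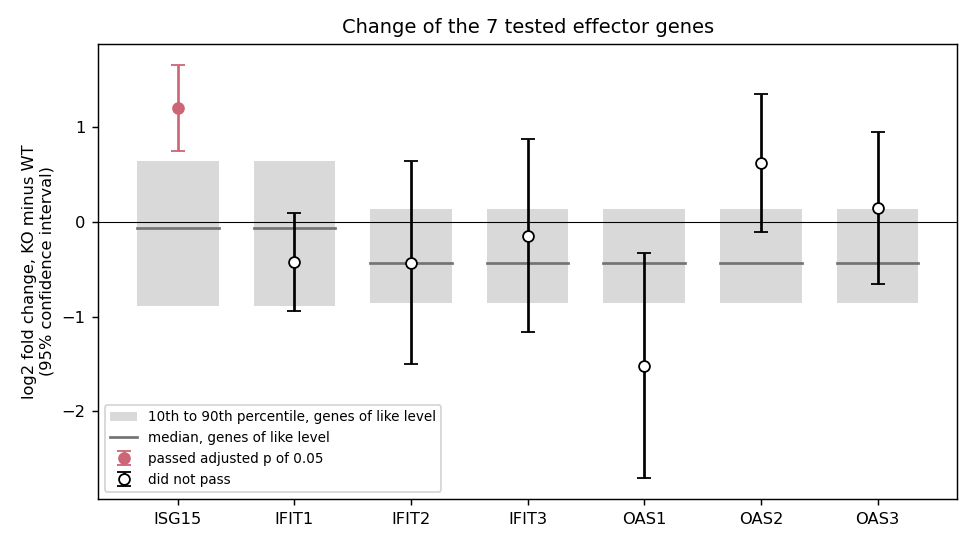
Log2 fold change, knockout minus wild type (vertical axis), of the 7 tested effector genes with 95% confidence intervals from limma. Grey boxes span the 10th to 90th percentile, and grey lines the median, of all genes with a mean of 50 to 100 (ISG15, IFIT1) or of 20 to 50 (the others). ISG15 (filled) lies above its box at 1.21, OAS2 and OAS3 lie above and OAS1 below theirs.

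The level of a gene bore on its difference between lines, and this touches every effector gene below. Among the 173 genes with a mean of 20 to 50, the median log2 difference of knockout minus wild type was -0.43, with 10th and 90th percentiles of -0.85 and 0.13. Knockout line 5 was the lowest of the 4 lines in 116 of these genes (67.1%). Wild-type line 7 exceeded wild-type line 1 by a median of 0.20 there. Among the 61 genes with a mean of 50 to 100 the median knockout difference was -0.07, with percentiles of -0.88 and 0.65, and among the 280 genes above 100 it was 0.04. ISG15, in the middle class of level, lay above the 90th percentile of that class. The part of this dependence on level in each result was not tested.

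The 3 IFIT genes lie together on chromosome 10 and did not pass the test. IFIT1 was at 105 in wild-type line 1 and 89.0 in the other wild type, and at 87.9 in knockout line 1 and 59.3 in the other knockout. Knockout line 1 was level with wild-type line 7, from which it differed by 1.07, and knockout line 5 was the lowest. The IFIT1 log2 fold change was -0.42 ± 0.24 (SE), with a 95% interval of -0.94 to 0.10 (limma adjusted p = 0.347). It was -0.70 without knockout line 1 (limma adjusted p = 0.0938) and -0.14 with knockout line 5 left out (adjusted p = 0.882). The interval over all 4 lines lies below the 0.75 at which the interval of ISG15 begins.

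IFIT2, a partner of the other IFIT proteins, stood at 27.1 and 24.8 in the wild-type lines, at 31.2 in knockout line 1 and at 11.45 in knockout line 5. Knockout line 1 was the highest of the 4 and knockout line 5 the lowest, below its background limit of 21.7, so that the groups overlapped. The IFIT2 log2 fold change was -0.43 with an SE of 0.49, an interval of -1.50 to 0.64 and an adjusted p of 0.61 by limma. IFIT2 was itself the median gene of its class of level. It passed the threshold without knockout line 1, at -1.11 (limma adjusted p = 0.0476), and turned to 0.26 without knockout line 5 (adjusted p = 0.825).

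IFIT3, which binds and stabilises IFIT1, stood at 28.2 and 17.1 in wild-type lines 1 and 7 and at 26.7 and 14.6 in knockout lines 1 and 5. Each group held 1 line above and 1 line below its background limit, and the groups overlapped. The IFIT3 log2 fold change was -0.15 ± 0.46 (SE), with an interval of -1.17 to 0.87 (limma adjusted p = 0.884). All 3 IFIT genes were lowest in knockout line 5, as were 67.1% of all genes with the level of IFIT2 and IFIT3 and 36.1% of those with the level of IFIT1. The highest line was knockout line 1 for IFIT2 and wild-type line 1 for the other two. The summed level of the 3 genes was 85.3 in knockout line 5, against 161 and 131 in wild-type lines 1 and 7 and 146 in knockout line 1. Knockout line 1 lay between the wild-type lines in this sum.

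The OAS genes had fold changes of both signs, and none of the 3 tested passed with limma (OAS1 alone had an unadjusted p under 0.05). OAS1, the smallest of the synthetases, stood at 28.2 and 41.9 in wild-type lines 1 and 7 and at 20.03 and 6.24 in knockout lines 1 and 5. Both knockout lines were lower than both wild-type lines, and knockout line 5, with 6 recovered counts, was below its limit. OAS1 had the 4th largest decrease among the tested genes, a log2 fold change of -1.52 ± 0.54 (SE) with an interval of -2.71 to -0.33, and did not pass (limma adjusted p = 0.13; unadjusted p = 0.0168). It passed the filter through its wild-type mean of 35.0, as its knockout mean was 13.1. Without knockout line 1 it passed the threshold, at -2.29 (limma adjusted p = 0.000265), and without knockout line 5 its fold change was -0.75 (adjusted p = 0.317), so its size rested on the value in line 5.

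OAS2, a larger synthetase, had a fold change above 0 that did not pass. Its levels were 31.3 and 29.1 normalised counts in the wild-type lines, 36.7 in knockout line 1 and 60.4 in knockout line 5. Both knockout lines were higher, and for line 5 the counting interval of 45.8 to 78.0 began above the wild-type intervals, which ended at 44.7 and 40.7. The OAS2 log2 fold change was 0.63 ± 0.33 (SE), with an interval of -0.10 to 1.35 (limma adjusted p = 0.314). It lay above the 90th percentile of genes of like level. Without knockout line 5 it was 0.27 (limma adjusted p = 0.791), and without knockout line 1 it was 0.98 (adjusted p = 0.054).

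OAS3, the longest synthetase, varied least, with 24.0 in both wild-type lines, 24.5 in knockout line 1 and 29.1 in knockout line 5. Wild-type and knockout values were apart by 0.48 normalised counts, far inside the counting interval of each line. The OAS3 log2 fold change was 0.15 ± 0.37 (SE), with an interval of -0.66 to 0.96 (limma adjusted p = 0.841). It was 0.27 without knockout line 1 (limma adjusted p = 0.661) and 0.03 with knockout line 5 left out (adjusted p = 0.976). OAS1, OAS3 and OAS2 are neighbours on chromosome 12. In knockout line 5, OAS1 was the lowest and OAS2 and OAS3 were the highest of the 4 lines.

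OASL and MX1 were below the filter. OASL stood at 11.5 and 17.97 in the wild-type lines and at 17.8 and 7.28 in the knockout lines, and MX1 at 4.17 and 5.99 against 3.34 and 10.4. None of these 8 values reached the background limit of its line, and the groups overlapped in both genes. In a fit without the filter the log2 fold change was -0.30 ± 0.52 for OASL and 0.23 ± 0.62 for MX1 (SE; limma adjusted p = 0.767 and 0.886). A difference in either gene was not detectable at these counts.

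**Figure D3:**
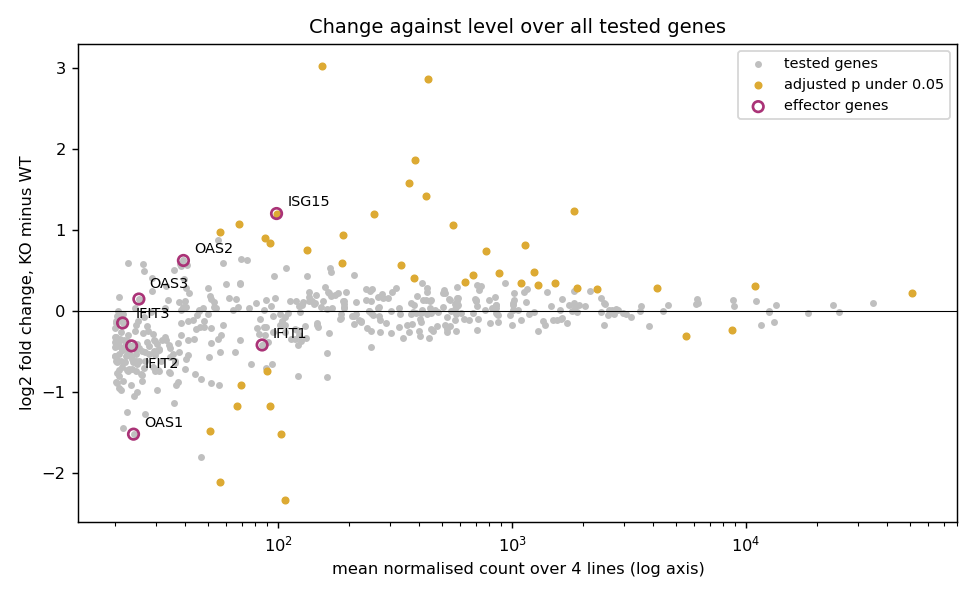
Log2 fold change, knockout minus wild type (vertical axis), against the mean normalised count over the 4 lines (horizontal log axis) for the 514 tested genes. Yellow points passed an adjusted p of 0.05 and rings mark the 7 tested effector genes. ISG15 is the only ringed gene that passed, and the others have lower means than ISG15.

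Differences between genes within a sample hardly depend on the scaling between samples. The log2 level of ISG15 minus that of IFIT1 was -0.84 and -0.58 in the wild type (lines 1 and 7), against 0.43 and 1.39 in the knockout (lines 1 and 5). The sign thus turned between the groups, although such a difference between probes says nothing of which RNA was more abundant. Its knockout minus wild-type difference was 1.62 on the log2 scale. Against each of the 8 other members, ISG15 stood relatively higher in both knockout lines than in both wild-type lines, by a mean of 0.58 against OAS2 to 2.73 against OAS1. These 8 comparisons share ISG15 itself, and OASL and MX1 lay below the background limit in every line. IFIT2 and OAS1 lay below it in knockout line 5, and OAS3 in wild-type line 1. IFIT3 did so in wild-type line 7 and knockout line 5. The largest difference, against OAS1, thus rests in part on 6.24 normalised counts in knockout line 5. Only the comparisons with IFIT1 and OAS2 are free of such values. With 2 lines against 2, a two-sided exact permutation test gave p = 0.333 for each of the 8 comparisons, also after Benjamini-Hochberg adjustment. This is the smallest value the design allows.

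The order of the knockout lines differed between members. Knockout line 5 was the lowest of the 4 lines for 5 genes (the 3 IFIT genes, OAS1 and OASL) and the highest for the 4 others (ISG15, OAS2, OAS3 and MX1). On the log2 scale, line 5 exceeded line 1 by 0.40 for ISG15 and by 0.70 for OAS2. It fell short with differences of -0.56 for IFIT1, -1.37 for IFIT2, -0.83 for IFIT3 and -1.54 for OAS1. The difference of line 5 minus line 1 over all genes with a mean of 20 to 50 had a median of -0.39 and a 10th to 90th percentile range of -1.23 to 0.37. IFIT2 and OAS1 lay below and OAS2 above that range, and IFIT3 lay inside it. For a mean of 50 to 100 the median was -0.15 and the range -0.69 to 0.20, with ISG15 above it and IFIT1 inside.

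The genes whose values over the 4 lines were most like those of ISG15 were sought among 340 other genes with a mean of 50 or more. Likeness was the Euclidean distance of log2 values after subtracting each gene's own mean. FYN, a Src-family kinase, was nearest at a distance of 0.157, followed by TAB2, an adaptor of the kinase TAK1, at 0.186 and LITAF, a regulator of endosomal and lysosomal membranes, at 0.333. The median distance was 1.23. FYN was measured at 164 and 145 in the wild type and at 324 and 392 in the knockout (line 5 the higher), close to the ISG15 profile. For IFIT1 the nearest were SLC2A3, a glucose transporter, at 0.193, JAK1 at 0.282 and GUCY1B1, a subunit of soluble guanylate cyclase, at 0.310, with a median distance of 0.665. All 3 were lowest in knockout line 5, and none passed the threshold, with limma adjusted p from 0.339 to 0.448. With 4 lines, many genes can share such a profile.

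**Figure D4:**
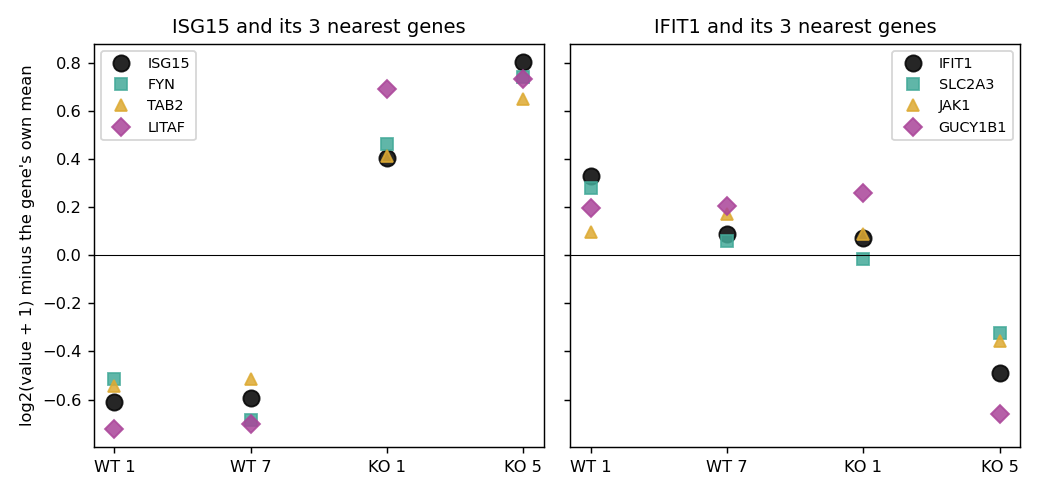
Log2(value + 1) minus the gene's own mean over the lines (vertical axis) in each line, for ISG15 and its 3 nearest genes (left) and IFIT1 and its 3 nearest genes (right). ISG15 lies with FYN and TAB2, low in both wild-type lines and high in both knockout lines, and IFIT1 and its neighbours are lowest in knockout line 5.

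The rest of the interferon pathway was followed with 5 gene lists, of which 60 probes were measured and 45 tested. With limma, 2 of the 45 passed as higher and 0 as lower (10 had an unadjusted p under 0.05, and edgeR called 2). Over all tested genes 6.23% passed as higher and 1.95% as lower, and 19.8% had an unadjusted p under 0.05. These counts thus do not set the lists apart from the panel. The count was 7 without knockout line 1, 6 of them lower, and 5 without wild-type line 1, 2 of them lower. The calls over all genes were also mostly lower without knockout line 1, as given above. Scaling on positive controls turned the balance of calls, with 1 gene higher and 3 lower, the latter being IFI16, IFITM3 and IFNA6. Of these, IFI16 had a knockout mean of 17.9 on the authors' scaling, below the filter. On the reference genes without TBP, 4 passed as higher and 0 as lower. In the main fit the median log2 fold change of the 45 was 0.01. Upstream, 0 of 8 interferon ligand probes passed (limma; 2 had an unadjusted p under 0.05, and edgeR called 0). All 8 had negative fold changes, with a median of -0.68. IFNA2, IFNA8, IFNB1, IFNK and IFNW1 passed the filter only through the wild type, with knockout means from 14.9 (IFNA2) to 19.4 (IFNB1). The filter thus favoured a negative sign in these probes, and their shared sign is no evidence of a direction. IFNA6 (174 and 224 in the wild type, against 179 in knockout line 1 and 69.7 in line 5) passed as lower under positive control scaling, at -0.79 (limma adjusted p = 0.0122). It also passed without knockout line 1, at -1.49 (adjusted p = 0.000117), and on leaving out wild-type line 1, at -0.996 (adjusted p = 0.000165). IFNA1/13 and IFNK passed as lower without knockout line 1, at -1.14 and -1.45 (limma adjusted p = 0.0352 and 0.00942). IFNA6 had a mean of 162 and the 7 others lay between 20 and 50, the class of level with a median of -0.43. Among these, IFNB1, the first type I interferon made by many cells, stood at 24.0 and 27.4 against 20.03 and 18.7, near the background limit.

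Of the receptor and kinase genes, 0 of 8 passed (limma, where 1 had an unadjusted p under 0.05, and edgeR called 0), with a median of 0.00. That 1 gene was IFNGR2, with a log2 fold change of 0.25 (limma adjusted p = 0.0598). IFNGR2 passed as higher on sample medians, with the filter at 50 and on reference genes without TBP (limma adjusted p = 0.0322, 0.0372 and 0.0087). Without wild-type line 1 its fold change was 0.28. IFNAR1 stood at 713 and 654 in the wild-type lines and at 640 and 711 in the knockout lines, which overlapped. Its log2 fold change was -0.02 with an SE of 0.10, and limma gave it an adjusted p of 0.941. Among the transcription factors 0 of 6 passed (limma; 0 had an unadjusted p under 0.05, and edgeR called 0). STAT2 had a log2 fold change of 0.05 ± 0.15 and IRF9 of 0.13 ± 0.30 (SE), neither of which passed.

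The genes that attach ISG15 to proteins did not pass either, with 0 of 3 (limma; 0 had an unadjusted p under 0.05, and edgeR called 0). UBE2L6, the conjugating enzyme of ISG15, stood at 83.5 and 85.6 in the wild-type lines and at 100.2 and 86.4 in the knockout lines. HERC5, its main ligase, stood at 137 and 138 in the wild-type lines, at 149 in knockout line 1 and at 74.9 in knockout line 5. HERC5 was thus lowest in the knockout line with the most ISG15. Its log2 fold change was -0.37 with an SE of 0.27, and limma gave it an adjusted p of 0.46. It passed as lower without knockout line 1, at -0.86 (adjusted p = 0.0197). TRIM25, which can also act as an ISG15 ligase, stood at 97.0 and 116 against 96.8 and 138.

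Among the other interferon-stimulated genes, 2 of 20 tested passed as higher and 0 as lower, with a median log2 fold change of 0.15. With limma 7 had an unadjusted p under 0.05, and edgeR called 2, or 1 with TMM factors. Of these 7, IFI16 at -1.80 and IFITM3 at -0.80 were lower (limma adjusted p = 0.188 and 0.0868) and the others higher. IFI16 stood at 128 and 23.1 in wild-type lines 1 and 7 and at 7.79 and 28.1 in knockout lines 1 and 5. The groups thus overlapped, with wild-type line 1 far above the rest. It passed the filter only through the wild type, as its knockout mean was 17.9. EIF2AK2, at 0.24 in the main fit, passed as higher on the reference genes without TBP (limma adjusted p = 0.0286). IFITM1, a membrane protein that hinders viral entry, rose from 150 and 172 to 464 and 745, a log2 fold change of 1.86 with an SE of 0.19 and an adjusted p of 6.09e-05 by limma. Like ISG15, it was higher in knockout line 5 than in line 1. BST2, which tethers budding viruses, stood at 1981 and 2191 in the wild-type lines and at 2536 and 2489 in the knockout lines. Its fold change was 0.27 with an SE of 0.07, and limma gave it an adjusted p of 0.0461, but the adjusted p was 0.203 with wild-type line 1 left out, 0.0909 with knockout line 1 left out and 0.0957 with knockout line 5 left out. RSAD2, the antiviral enzyme viperin, stood at 31.3 and 35.1 against 18.9 and 27.1 and did not pass (adjusted p = 0.448). IFI6, a mitochondrial interferon-induced protein, had a log2 fold change of 0.60 with an SE of 0.26 and an adjusted p of 0.228 by limma. As the lists were drawn up with earlier results of these data known, these counts are no independent evidence of a direction.

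**Figure D5:**
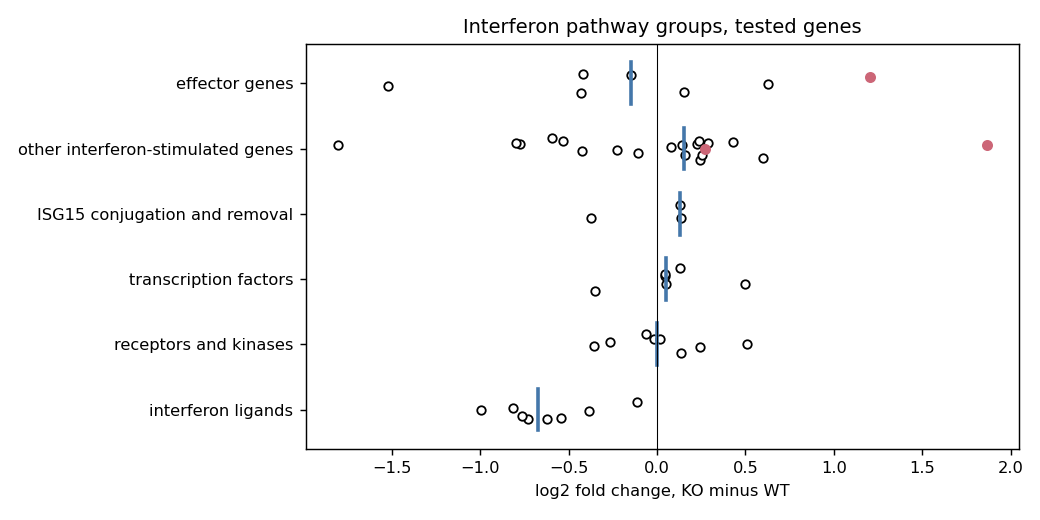
Log2 fold change, knockout minus wild type (horizontal axis), of the tested genes of each interferon pathway group and of the effector genes (rows). Filled points passed an adjusted p of 0.05 and blue bars are medians. ISG15 at 1.21, IFITM1 at 1.86 and BST2 at 0.27 are the filled points. The ligands all lie below 0, and several of them passed the filter only through the wild type.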

How the data were processed

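Total RNA of 2 wild-type and 2 MATR3 knockout HAP1 lines was counted with a NanoString panel of 785 gene, 6 positive and 8 negative control probes. What the authors deposited for genes was a scaled signal; the normalisation method is not given in the sources used here, and R 4.1.1 is named per the submitters' processing notes. From the values, the authors' factor per sample was 0.856 to 1.11, and 100.0% of gene values above the lowest step were whole multiples of it within 0.006. In wild-type line 7, 4 values stood at a floor of 1.00. The geometric means of 10 reference genes, TBP among them, were equal across the samples within 1.04e-05 on the log2 scale.

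Log2(value + 1) was fitted with limma 3.58.1 in R 4.3.3 (lmFit, eBayes with trend, no covariates) over the 514 genes averaging 20 or more, and p-values, all two-sided, were adjusted by Benjamini-Hochberg over these. Fold changes on this scale understate those of low genes. With edgeR 4.0.16 (quasi-likelihood), the recovered counts gave 41 genes past the threshold, against 42 with limma. Intervals of single values are exact Poisson intervals at 95%. The members and lists were chosen with earlier results of these data known. All 9 members were named, with the 3 nearest genes of ISG15 and IFIT1 and list genes that passed. List genes that did not pass were named after their values were seen, for their known role.

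Alternatives were a pseudocount of 10, leaving out the filter, a stricter one at 50, other scalings, background subtraction with a floor of 1, limma without the trend, edgeR and leaving out each line. Values of some genes are not reported here.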

Additional observations from a re-analysis of the deposited data

How the results depend on the processing

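No paired analysis was possible because wild type and knockout have just 1 line number in common. ISG15 kept its call in 13 of 14 alternatives and lost it under limma without the trend, where its log2 fold change was 1.21 (adjusted p = 0.095). Without single lines it ranged from 1.01 to 1.40. The number of effector genes past the threshold was then 0 of 7 under limma without the trend (1 had an unadjusted p under 0.05, and edgeR called 1), and 1 to 3 without single lines, with 3 without knockout line 1. With 1 line left out, IFIT1 lay between -0.70 and -0.14, OAS3 between 0.03 and 0.27, IFIT2 between -1.11 and 0.26 and IFIT3 between -0.56 and 0.27. The highest values of IFIT2 and IFIT3 came without knockout line 5, and IFIT3 was also above 0 (0.20) in the absence of wild-type line 1. The cause was not tested. Over all genes the 42 calls became 4 under limma without the trend and 29 to 77 without single lines, and their split of 32 higher and 10 lower became 53 and 8 on the reference genes without TBP and 30 and 47 without knockout line 1. Of the pathway lists, 2 genes passed, against 1 with no filter, 1 after background subtraction and 1 with edgeR and TMM factors. With positive control scaling 4 passed (1 higher and 3 lower). On the reference genes without TBP 4 passed (4 higher and 0 lower), and on sample medians 3 (3 higher and 0 lower). Under limma without the trend 0 passed (9 had an unadjusted p under 0.05, and edgeR called 2). IFITM1 kept its call in 13 of 14 alternatives and BST2 in 6 of 14. Of the 36 member values, 23 lay above the background limit, 23 above the highest and 31 above the mean negative control probe. Where a line was left out, the lone line of its group was assumed to vary like the other group. Low counts limit the genes other than ISG15 and IFIT1.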
